A study of Mus musculus with 6 samples.

Results

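To ask whether germline loss of *Glis2* altered the genes that build fatty acids, 10 genes of de novo fatty acid synthesis were followed in mammary epithelial cells. The genes were chosen by their role in the pathway, as *Srebf1*, *Thrsp*, *Acly*, *Acss2*, *Me1*, *Acaca*, *Fasn*, *Elovl6*, *Scd1* and *Scd2*. The rule uses no measured value, but the list was chosen with earlier results of these data known. All 10 were found among the 54418 gene identifiers of the count table, and all 10 passed the filter on low counts. The cells came from C57BL/6 female mice at 4 weeks of age, 3 of them wild type at *Glis2* (WT) and 3 with a germline knockout of the gene (KO), with 1 library per replicate. GLIS2 is a zinc finger transcriptional repressor found at the base of the primary cilium. The knockout was in the germline, so that a difference could arise in the epithelium or through other tissues of the mouse, and the cells were sorted by FACS as a mixture of luminal and basal epithelium. Per-gene values are CPM, counts scaled to a common library size after TMM normalization, and differences are log2 fold changes of KO over WT from edgeR's quasi-likelihood test, with Benjamini-Hochberg adjustment over all genes tested. A gene was called where its adjusted p was 0.05 or less and its log2 fold change was 0.58 or more in either direction.

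Cells make fatty acids from cytosolic acetyl-CoA. ATP citrate lyase (*Acly*) releases acetyl-CoA from citrate, acetyl-CoA synthetase (*Acss2*) makes it from acetate, and malic enzyme (*Me1*) supplies NADPH. Acetyl-CoA carboxylase (*Acaca*) makes malonyl-CoA, fatty acid synthase (*Fasn*) assembles palmitate, ELOVL6 lengthens it to stearate, and the stearoyl-CoA desaturases SCD1 and SCD2 introduce a double bond. The transcription factor SREBP-1, encoded by *Srebf1*, activates many of these genes, and THRSP (Spot 14) is a small lipogenic protein. In the mammary gland this pathway is best known for the medium-chain fatty acids of milk, while adipocytes of the fat pad also use it. The glands studied here were pubertal and not lactating.

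SREBP-1 acts on many promoters together with the CCAAT-binding factor NF-Y. RefSeq promoters on GRCm38.p6, each running from 250 bases before to 50 bases after a transcription start, were matched for 8 of the 10 genes, with 11 promoters in all. *Scd1* and *Scd2* had no entry in the promoter table. The letters CCAAT, searched on both strands, were found in 7 of these 11 promoters, against 37.4% of all 32851 promoters in the table. They belonged to 6 of the 8 genes (*Srebf1*, *Thrsp*, *Acly*, *Acss2*, *Me1* and *Fasn*), and no share per gene was taken over all genes. The match of *Acly* began at position 38, after the start. That of *Me1* was not in the promoter nearest the annotated start of the gene, and the promoter of *Acaca* lies inside the annotated gene. The sterol regulatory element searched as TCACNCCAC was in 0 of the 11 and in 1.24% of all promoters, and the E-box CACGTG was in 0 of the 11 and in 7.15% of all. *Fasn* and *Thrsp* are both textbook SREBP-1 targets, and they are shown because *Thrsp* varied most between libraries while *Fasn* varied little. Each sequence below holds the 250 bases before the start, on the minus strand and written 5′ to 3′, with every CCAAT match of either strand in capitals. The 3 matches of *Fasn* began at positions −90, −62 and −59 from the start, and the last pair overlap. The 2 matches of *Thrsp* began at −79 and −52.
Fasn, chr11:120824548-120824797: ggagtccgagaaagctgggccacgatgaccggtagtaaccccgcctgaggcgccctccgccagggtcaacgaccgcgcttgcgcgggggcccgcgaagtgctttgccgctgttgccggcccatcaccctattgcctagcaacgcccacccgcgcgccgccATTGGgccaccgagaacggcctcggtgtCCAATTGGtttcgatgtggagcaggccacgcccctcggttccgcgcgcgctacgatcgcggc
Thrsp, chr7:97417551-97417800: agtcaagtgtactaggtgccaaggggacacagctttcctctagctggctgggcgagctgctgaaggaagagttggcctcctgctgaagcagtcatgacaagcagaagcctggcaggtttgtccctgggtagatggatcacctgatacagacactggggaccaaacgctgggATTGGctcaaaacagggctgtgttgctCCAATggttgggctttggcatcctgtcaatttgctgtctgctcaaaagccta

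None of the 10 genes was called between KO and WT cells. The smallest adjusted p among them was 0.906, and over all genes the same test called 0 of 21236 (0%), with 636 genes higher and 494 lower at an unadjusted p under 0.05. DESeq2 with apeglm shrinkage, the procedure of the study's methods, also called 0 of the 10 genes, against 45 of 23738 genes with an adjusted p (0.19%). The fold changes were small. Estimates were positive for 3 genes and negative for 7, between −0.33 and 0.31, with a median of −0.09 against 0.01 over all genes tested. The 95% confidence interval stayed within 0.58 of 0 in both directions for 5 genes (*Srebf1*, *Acly*, *Acaca*, *Fasn* and *Scd1*). For *Thrsp*, *Acss2*, *Me1*, *Elovl6* and *Scd2* it reached past 0.58 in at least 1 direction, and a change of that size was not resolved with 3 libraries per genotype.

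**Figure D1:**
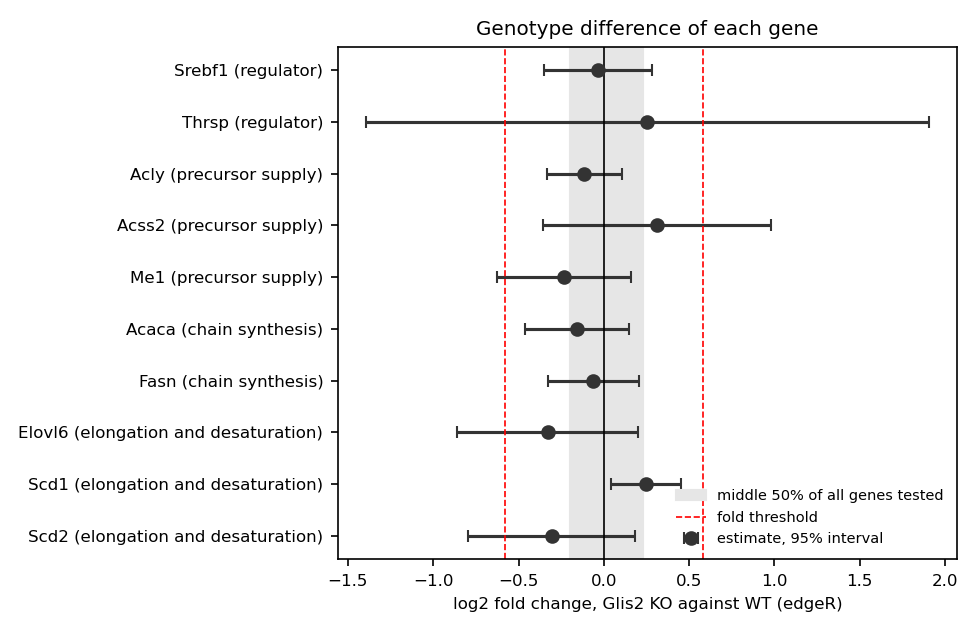
Log2 fold change of KO over WT (horizontal axis) of each gene with its 95% confidence interval from edgeR, the fold threshold of 0.58 in either direction as dashed lines, and the middle 50% of all 21236 genes tested shaded. The 10 estimates lie between −0.33 and 0.31, and the interval of *Thrsp* is the widest of the 10.

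Total counts lay between 24996524 and 31393917 per library. Keratins of both epithelial layers were abundant in every library, with *Krt8* (luminal) between 1238 and 1950 CPM and *Krt14* (basal) between 326.8 and 631.3 CPM. *Glis2* was at 21.7, 23.2 and 19.6 CPM in the WT libraries and at 10.1, 17.0 and 16.3 CPM in the KO libraries. It was lower in each KO library than in any WT library, but it was still detected, and its log2 fold change of −0.57 had an adjusted p of 0.906. Its level scaled for transcript length was 29.7, 38.4 and 18.4 in the WT libraries and 30.6, 30.2 and 30.6 in the KO libraries. On this scale the genotypes overlapped and the mean was not lower in KO (28.8 in WT and 30.5 in KO). The targeted gene thus checks the labels only in part. Markers of stroma differed between libraries of the same genotype. The summed CPM of 5 endothelial markers was 112.0 in WT library 2 and 173.2 in KO library 2, against 382.3 to 620.4 in the other 4 libraries. The sums of the fibroblast and adipocyte markers were also lowest in this pair. Most of the adipocyte sum was *Fabp4*, and not every adipocyte marker was lowest there. *Pecam1*, which encodes the CD31 antigen stained for in the sort, was between 44.6 and 198.3 CPM. The adipocyte gene *Adipoq* was at 0 counts in KO library 2 and at most 4.07 CPM elsewhere, and *Plin1* was between 2.44 and 14.4 CPM. In RNA from mixed cells, fewer cells of a type and less RNA per cell cannot be told apart.

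To compare levels between genes, TPM values were rescaled so that the protein-coding genes of a library have the same total in every library, because a single small RNA gene took 83.0% to 85.7% of the deposited TPM. On this length-scaled level the desaturases led. *Scd2* had a mean over the 6 libraries of 125.3, *Scd1* 106.6, *Srebf1* 102.4 and *Acly* 93.0, and the ranges of neighbours in this order overlapped. *Acaca* followed at 63.6, *Fasn* at 53.4 and *Me1* at 46.7. *Acly* lay above *Acaca* without overlap of their ranges, whereas *Acaca* overlapped *Fasn* and *Fasn* overlapped *Me1*. The low genes were *Elovl6* at 14.7, *Acss2* at 8.01 and *Thrsp* at 5.26, and *Elovl6* was below *Me1* without overlap. The whole set took between 0.0825% and 0.105% of the counts of a library. By its length-scaled level, *Scd2* stood at percentile 89.9 of the protein-coding genes tested and *Thrsp* at 24.3.

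*Srebf1* (ENSMUSG00000020538, chromosome 11, 60199089 to 60222581 of GRCm38, minus strand) was at 113.2, 144.2 and 118.9 CPM in the WT libraries and at 123.8, 138.4 and 105.0 CPM in the KO libraries. The genotypes overlapped, and the highest value of each genotype was in its library 2. The mean was 125.4 ± 16.5 CPM in WT and 122.4 ± 16.7 CPM in KO cells (SD, n = 3), with a log2 fold change of −0.04 (95% confidence interval −0.35 to 0.28, edgeR adjusted p = 0.989). Counts cannot tell the SREBP-1a and SREBP-1c isoforms of this gene apart. *Thrsp* (ENSMUSG00000035686, chromosome 7, 97412938 to 97417730, minus strand) was at 3.18, 0.945 and 3.11 CPM in the WT libraries and at 2.88, 0.668 and 5.08 CPM in the KO libraries. Its lowest value in each genotype was in library 2, the highest of all was in KO library 3, and the highest was 7.61 times the lowest. The log2 fold change of *Thrsp* was 0.26 with a 95% confidence interval of −1.39 to 1.90 (edgeR adjusted p = 0.983), so that neither a rise nor a fall of more than 1 on the log2 scale is outside the interval. Without KO library 2 the estimate of *Thrsp* was 0.72, and it turned to −0.13 without WT library 2 and to −0.47 without KO library 3. That of *Srebf1* turned to 0.08 without WT library 2, to 0.05 without KO library 3 and to 0.13 with rescaled TPM in limma.

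The genes that supply acetyl-CoA and NADPH did not separate the genotypes. *Acly* was at 134.8, 144.7 and 154.8 CPM in the WT libraries and at 137.6, 135.0 and 128.6 CPM in the KO libraries. It was the steadiest of the 10 genes, with the highest library 1.204 times the lowest. *Acss2*, a low gene, was at 7.97, 7.70 and 5.30 CPM in the WT libraries and at 10.1, 5.94 and 10.0 CPM in the KO libraries. KO libraries 1 and 3 were above all WT libraries, and KO library 2 lay within them. *Me1* was at 55.7, 76.5 and 62.7 CPM in the WT libraries and at 54.9, 66.0 and 45.0 CPM in the KO libraries. Like *Srebf1*, it was highest in library 2 of each genotype and lowest in KO library 3. The log2 fold changes were −0.11 for *Acly* (interval −0.33 to 0.10), 0.31 for *Acss2* (−0.36 to 0.98) and −0.23 for *Me1* (−0.62 to 0.16), and the edgeR adjusted p of all 3 was at least 0.941. When 1 library was left out, the estimate ranged from −0.18 (without WT library 1) to −0.06 (without WT library 3) for *Acly*, from 0.15 (without WT library 3) to 0.52 (without KO library 2) for *Acss2* and from −0.39 (without KO library 2) to −0.10 (without WT library 2) for *Me1*. For *Acss2* the estimate was negative with TPM in limma (−0.11 and −0.25 as deposited with offsets of 1 and 0.1, and −0.11 rescaled).

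Both enzymes of chain synthesis had overlapping values and narrow intervals. *Acaca*, which catalyses the committed step, was at 139.1, 115.0 and 119.5 CPM in the WT libraries and at 123.2, 93.5 and 118.0 CPM in the KO libraries. KO library 2 was the lowest, and the other 2 KO libraries lay within the WT range. *Fasn* (ENSMUSG00000025153, chromosome 11, 120805846 to 120824547, minus strand) was at 172.8, 152.1 and 194.5 CPM in the WT libraries and at 176.2, 152.0 and 169.7 CPM in the KO libraries. Library 2 was the lowest of each genotype, at nearly the same value in both. The log2 fold change was −0.16 for *Acaca* (95% confidence interval −0.46 to 0.15, edgeR adjusted p = 0.941) and −0.06 for *Fasn* (−0.33 to 0.21, edgeR adjusted p = 0.977). When 1 library was left out, *Acaca* ranged from −0.24 (without KO library 1) to −0.05 (without KO library 2), and *Fasn* turned to 0.03 without WT library 3.

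Elongation and desaturation held both the lowest estimates of the 10 genes and the 1 gene whose genotypes did not overlap. *Elovl6* was at 33.5, 29.7 and 25.2 CPM in the WT libraries and at 26.6, 15.7 and 28.1 CPM in the KO libraries. *Scd2* (ENSMUSG00000025203, chromosome 19, 44293674 to 44306864, plus strand) was at 271.8, 204.2 and 219.0 CPM in the WT libraries and at 225.9, 125.5 and 211.1 CPM in the KO libraries. In both genes KO library 2 was far below the rest, and the other KO libraries lay among the WT values. The log2 fold changes were −0.33 for *Elovl6* (interval −0.86 to 0.20) and −0.31 for *Scd2* (−0.79 to 0.18), each with an edgeR adjusted p of 0.941. Without KO library 2 they were −0.11 and −0.09, and over the fits that left out 1 library they ranged from −0.50 to −0.11 for *Elovl6*, with the lowest value without KO library 3, and from −0.46 to −0.09 for *Scd2*, with the lowest value without KO library 1.

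*Scd1* (ENSMUSG00000037071, chromosome 19, 44394455 to 44407879, minus strand) was at 100.6, 105.0 and 104.2 CPM in the WT libraries and at 124.7, 124.6 and 117.8 CPM in the KO libraries. Every KO value was above every WT value. The means were 103.3 ± 2.32 and 122.4 ± 3.92 CPM (SD, n = 3), with a log2 fold change of 0.24 (95% confidence interval 0.04 to 0.45), and the adjusted p from edgeR was 0.906, at an unadjusted p of 0.0245. *Scd1* was the 1 of 10 genes that lay higher in KO without overlap, where 6.23% of all genes tested did so, and 0 of the 10 lay lower without overlap, where 5.5% did. It was also the 1 gene with an unadjusted p under 0.05 and a higher value in KO, against 2.99% of all genes, and none was lower at that p, against 2.33%. The difference was not seen in the length-scaled level, at 101.2, 107.0 and 110.7 in the WT libraries and 119.9, 104.6 and 96.1 in the KO libraries. The effective length implied by the counts and TPM was taken relative to the median gene of each library. For *Scd1* its mean was longer in KO by 0.21 on the log2 scale, with overlap (0.123 in WT library 1 and 0.121 in KO library 1). A shift of that size was not particular to *Scd1*, as *Srebf1* was at −0.205. Limma on the log2 length-scaled levels gave a log2 fold change of 0.003 for *Scd1*.

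The count of *Scd2* over that of *Scd1*, a pair of desaturase genes close together on chromosome 19, was 2.70, 1.95 and 2.10 in the WT libraries and 1.81, 1.01 and 1.79 in the KO libraries. The genotypes did not overlap in this ratio of counts, whereas in the ratio of TPM (1.62, 1.14 and 1.16 against 1.14, 0.720 and 1.29) they did. The ratio was examined after its values were seen and was not tested.

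**Figure D2:**
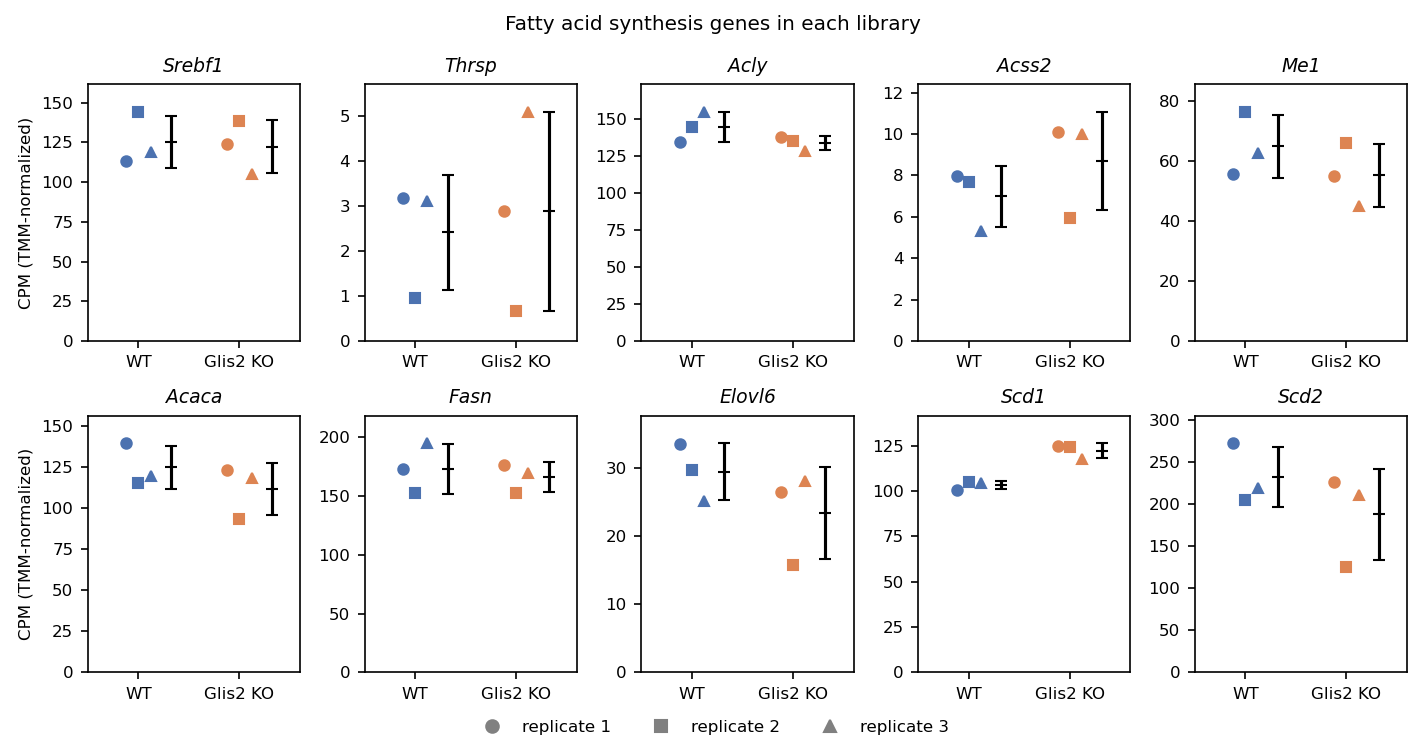
CPM (vertical axes, from 0, a scale for each gene) of the 10 genes in the 3 WT (blue) and 3 KO (orange) libraries, with the mean and SD in black. *Scd1* is the 1 gene without overlap, at 100.6 to 105.0 CPM in WT and 117.8 to 124.7 CPM in KO.

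The libraries differed within a genotype in a way that split the genes. KO library 2 held the lowest value of 5 genes (*Thrsp*, *Acaca*, *Fasn*, *Elovl6* and *Scd2*) and KO library 3 the lowest of 3 (*Srebf1*, *Acly* and *Me1*). *Srebf1* and *Me1* were highest in WT library 2 and next highest in KO library 2. The same pair of libraries had the highest summed luminal markers, at 7562 and 7782 CPM against 4210 to 6461 CPM in the others. *Krt8* alone was at 1950 and 1899 CPM there, and some of the 14 luminal markers were highest in another library. *Thrsp* went the other way from *Srebf1* and *Me1*, with ranks 5 and 6 of 6 in this pair. The sum of the 10 adipocyte markers was also lowest there, at 56.2 and 99.8 CPM against 165.9 to 320.0 CPM in the others. Most of that sum was *Fabp4*, at 46.3 and 89.0 CPM in this pair, while *Plin1* was lowest in KO library 1 and *Lep* was highest in KO library 2. The endothelial sum was lowest in this pair too, at 112.0 and 173.2 CPM, so that the likeness of *Thrsp* was not to adipocyte markers alone. *Fasn*, *Acaca* and *Scd2* likewise had their ranks 5 and 6 in this pair. The part of luminal, adipocyte or other stromal RNA in these values was not tested. The mean log2 level of the fibroblast and endothelial markers was added to the fit as a stromal term, without adipocyte or luminal markers. The log2 fold changes of the 10 genes then lay between −0.35 and 0.30 and none was called. The log2 fold change of *Thrsp* was 0.13 with this term, and 0.05 with the replicate number as a block in its place. Without library 2 of each genotype, the log2 fold change was 0.59 for *Acss2* and −0.25 for *Me1*, both then without overlap and neither called (edgeR adjusted p of at least 0.981). With these 4 libraries 17.8% of all genes lay higher and 17% lower in KO without overlap. Summed basal markers were higher in the KO libraries, at 6508 to 7846 CPM against 4799 to 6137 CPM in WT. Summed immune markers were at 30.8 to 63.4 CPM against 17.2 to 30.7 CPM, and *Ptprc* alone was at 38.7 CPM in KO library 3. All 12 basal and 5 of 6 immune estimates were positive, and edgeR called none. Without overlap, 3 basal and 2 immune markers lay higher in KO, against 6.23% of all genes tested. *Ptprc*, 1 of the 6 immune markers, encodes the CD45 antigen that was stained for in the sort, as was TER-119. The part of these in the genotype differences was not tested.

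**Figure D3:**
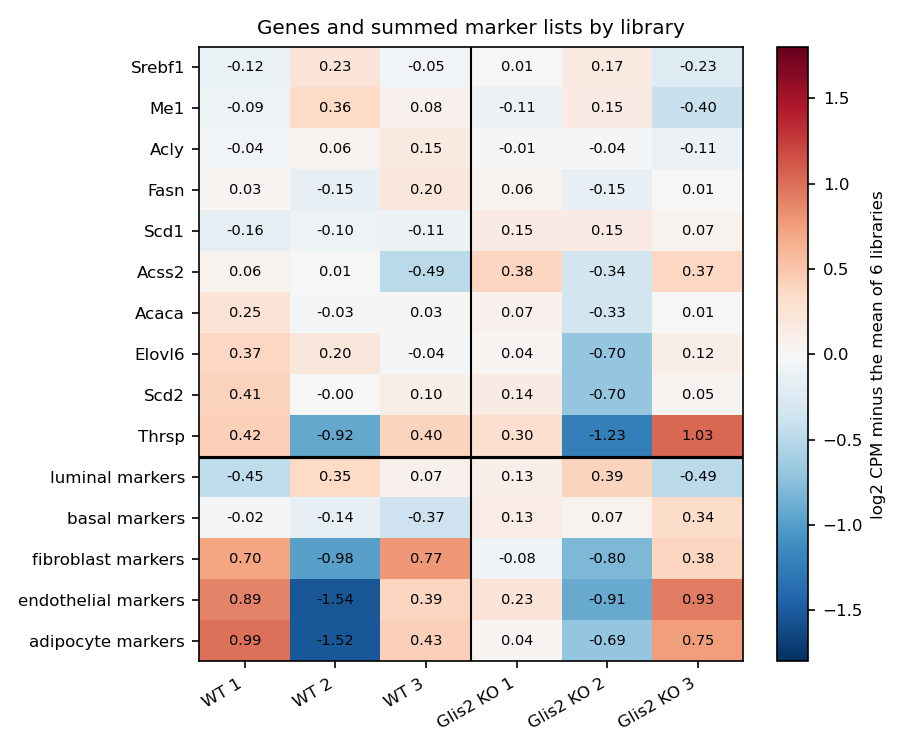
Log2 CPM minus its mean over the 6 libraries (color and printed value) for the 10 genes, above the line, and for the summed markers of 5 cell types, below it, by library. *Thrsp* is low in WT library 2 (−0.92) and KO library 2 (−1.23), while *Srebf1* and *Me1* are highest there. In these libraries the summed adipocyte markers, mostly *Fabp4*, are at −1.52 and −0.69, and the endothelial markers at −1.54 and −0.91.

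Part of the *Acaca* and *Me1* values rests on sequence that other genes share. Of the 40-base stretches in annotated *Acaca* transcripts, 40 bases being the read length, 31.9% occur in another gene, mostly the processed pseudogene *Gm5182*, which had a mean of 10.3 CPM. For *Me1* the share was 26.5%, mostly with *Gm7049* at a mean of 1.01 CPM. It was 6.22% for *Scd1* and 5.33% for *Scd2*, mostly with *Scd3*, 5.06% for *Elovl6*, and below 0.5% for the other 5 genes. The split of reads between these copies is Salmon's estimate.

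The wider pathway was read from 50 further genes of lipogenesis and its control. Of the 47 that passed the filter, 0 were called in either direction, 21 had a positive and 26 a negative estimate, and the median log2 fold change was −0.03. *Olah*, *Elovl2* and *Elovl3* had at most 12 counts in a library and were not tested. Higher in KO without overlap were *Mbtps1*, *Hacd1* and *Dgat1*, and lower were *Srebf2* and *Scd3*, 5 genes of which *Dgat1* and *Scd3* were singled out after their values were seen. These 3 and 2 of 47 genes are near the shares over all genes tested, 6.23% and 5.5%. *Srebf2*, which encodes the sterol-responsive SREBP-2, was at 209.6, 220.5 and 201.6 CPM in the WT libraries and at 175.9, 162.7 and 174.3 CPM in the KO libraries. Its log2 fold change was −0.30 (95% confidence interval −0.50 to −0.10, edgeR adjusted p = 0.906). *Mbtps1*, whose site-1 protease cleaves SREBP precursors, had a log2 fold change of 0.24, and *Hacd1*, a dehydratase of chain elongation, of 0.58, both at an adjusted p of 0.906. *Scd3* was a sparse gene with 10 to 40 counts per library.

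The other pathway genes of highest CPM in their role did not separate the genotypes. *G6pdx*, a source of NADPH, had a log2 fold change of 0.01 and the desaturase *Fads1* of 0.02. *Tecr*, the last enzyme of the elongation cycle, was at −0.12, *Acsl4*, which activates fatty acids, at −0.11, and *Mecr*, of mitochondrial fatty acid synthesis, at 0.25. Each of these 5 overlapped between genotypes, and none was called.

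SREBP-2 drives the enzymes of sterol synthesis, and 17 sterol genes were set beside the fatty acid genes, a list chosen with its values in these data known. All 17 had negative estimates, with a median log2 fold change of −0.36, and 10 were lower in KO without overlap, against 5.5% of all genes tested. EdgeR called 0 of the 17 (8 were lower at an unadjusted p under 0.05, against 2.33% of all genes), and DESeq2 called 1, *Cyp51*, named after its values were seen. The summed CPM of the sterol genes was 467.3 to 520.8 in the WT and 346.0 to 381.5 in the KO libraries. For the 10 fatty acid genes it was 1033, 980.1 and 1007 in the WT libraries and 1006, 857.2 and 938.4 in the KO libraries, where the genotypes overlapped. The sum over the fatty acid genes was thus 1.98, 2.04 and 2.15 times that over the sterol genes in the WT libraries and 2.69, 2.48 and 2.46 times in the KO libraries. This contrast was noticed in the data, and no test of the difference between the lists was made.

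**Figure D4:**
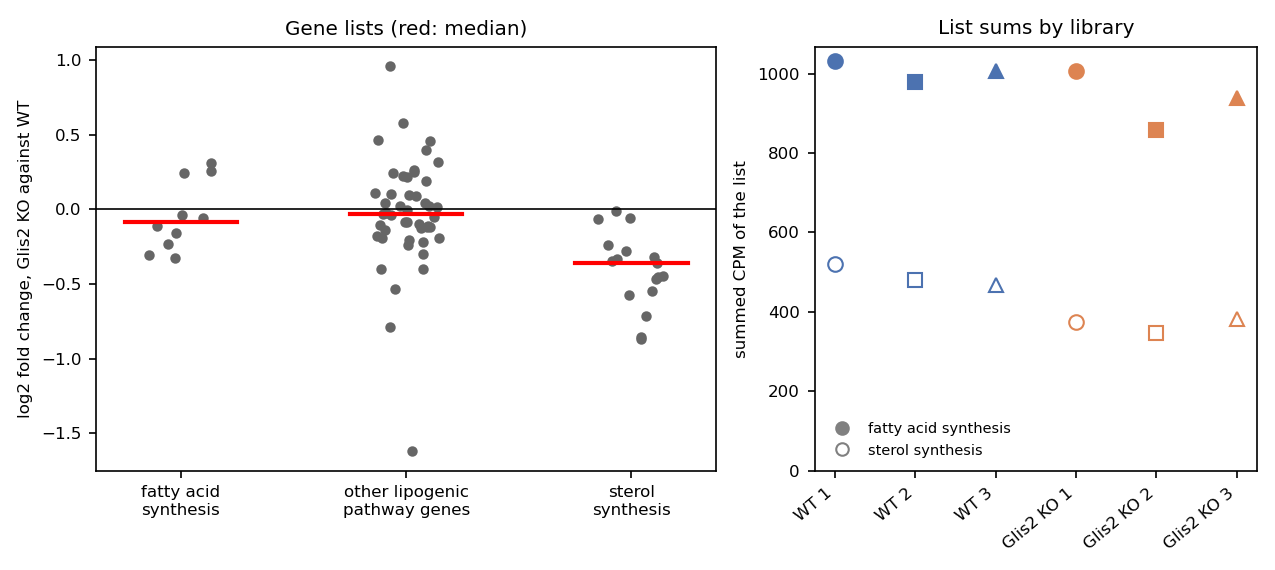
Left, log2 fold change of KO over WT (vertical axis) of each gene tested in 3 lists with the median in red. Right, summed CPM of the fatty acid (filled) and sterol (open) lists in the 3 WT (blue) and 3 KO (orange) libraries, where the fatty acid sums overlap and the sterol sums are 467.3 to 520.8 in WT against 346.0 to 381.5 in KO.

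For each library the median of the 10 genes was taken after centring their log2 CPM on the WT mean. It was 0.08, 0.01 and −0.05 in the WT libraries and −0.01, −0.19 and −0.07 in the KO libraries. Among 9364 protein-coding genes outside the lists, those with the most similar profile over the 6 libraries were *Mff*, *Hnrnpa2b1*, *Cdk16*, *Parp1* and *Psme2*, with root mean square differences of 0.03 to 0.04 on the log2 scale.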

How the data were processed

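Mammary epithelial cells of 3 WT and 3 *Glis2* KO mice were profiled from 1 ng of total RNA with a stranded kit (TaKaRa SMARTer Stranded Total RNA-Seq v2). The authors estimated counts with Salmon 1.2.1 on a transcriptome of mm10 and summed them per gene with tximport. The deposited estimated counts were whole numbers without scaling for library size, and the authors deposited TPM as log2 values with an offset of 1. Strand, overlapping genes and shared sequence enter through Salmon's sharing of reads. Of 54418 identifiers, 54166 matched the GENCODE M21 annotation.

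Genes were filtered by filterByExpr, normalized by TMM and tested across all genes with edgeR 4.0.16 (R 4.3.3; quasi-likelihood), with calls where the adjusted p was 0.05 or less and the log2 fold change 0.58 or more in either direction. DESeq2 1.42.0 with apeglm 1.24.0, limma 3.58.1 on log2 TPM (also rescaled, added after seeing the data), other filters and scalings, a replicate block and leaving out each library were alternatives. The functions were tested on simulated data. No library was a copy of another (chi-square per degree of freedom of at least 18.8). The study's figure legend gives 3 mice per genotype. Deviations of same-numbered libraries from their genotype means correlated at −0.03, 0.29 and 0.06. Because this was over 0.1 for replicate 2 alone, the numbers were not used as pairs.

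The members and lists were chosen with earlier results of these data known. Genes named are the 10 members, *Glis2*, other pathway genes at an unadjusted p under 0.05 or of highest CPM in their role, markers that define a cell type, and the 5 genes most similar in profile. Genes named outside this rule (*Dgat1*, *Scd3*, *Cyp51*, *Fabp4* and *Lep*, the 3 untested pathway genes and the copies that share sequence) were chosen after their values were seen. Another gene of sterol metabolism is not reported here. Sequences are from RefSeq.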

Additional observations from a re-analysis of the deposited data

How the results depend on the processing

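None of the 10 fatty acid synthesis genes and none of the other pathway genes tested (47 in the edgeR test) was called under any alternative run, including the replicate block (0 of 10, with a median log2 fold change of −0.08 and 0 calls over all genes). Calls over all genes numbered 45 with DESeq2, 39 with the likelihood ratio test, 40 without a filter on low counts, 2 with log2(TPM + 0.1) in limma and, in a fit chosen after seeing the data, 9 with a stromal covariate. With TPM in limma the median of the 10 genes was −0.21 (offset 1) and −0.26 (offset 0.1), where the median of all genes was −0.06 and −0.14, and 0 of the 10 genes were without overlap, where 13.1% of all genes were. With TPM rescaled to protein-coding genes, added after seeing the data, the median was −0.11 against −0.01 over all genes, with 0 of the 10 genes without overlap (10.9% of all genes) and 2 calls over all genes. Leaving out 1 library gave 1 to 3 of the 10 genes without overlap, where 19.2% to 24.1% of all genes had none, and leaving out WT and KO library 2, also chosen after seeing the data, gave 3, where 34.8% of all genes had none.

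Of 180 fits of single genes under an alternative, 168 kept their direction and 12 reversed it, and no gene was called in any of them. Many alternatives refit the same counts, so that these fits are not independent. Kept directions include estimates near 0, such as that of *Scd1* with rescaled TPM. With TPM as deposited, *Scd1* was −0.14 (offset 1) and −0.15 (offset 0.1), *Acss2* −0.11 and −0.25, and *Thrsp* −0.070 with offset 0.1. With rescaled TPM, *Scd1* was 0.003 and *Thrsp* 0.05, while *Acss2* (−0.11) and *Srebf1* (0.13) had the opposite sign to the counts. The count-based fits kept *Scd1* between 0.21 and 0.26 when 1 library was left out. When 1 library was left out, the log2 fold change of *Srebf1* ranged from −0.14 to 0.08 (0.078 without WT library 2 and 0.048 without KO library 3), that of *Thrsp* from −0.47 to 0.72 (−0.13 without WT library 2 and −0.47 without KO library 3), and that of *Fasn* from −0.14 to 0.03 (0.030 without WT library 3). The cause was not tested. With 3 libraries per genotype, the intervals of 5 of the 10 genes reach past 0.58 on the log2 scale, and the 0.668 to 5.08 CPM of *Thrsp* leave its interval the widest.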
